A study of Mus musculus with 89 samples.

Results

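Solute carriers are membrane proteins that move amino acids, sugars, metals, ions, lipids and vitamins into cells or between their compartments, and 93 of them outside the families Slc1 and Slc6 (the carriers of glutamate and of neurotransmitters) were described in 89 single cells of the mouse dentate gyrus. The 93 were chosen by name and detection, as names of the Slc pattern with a count of 1 or more in at least 20% of the 89 cells. Members and rules were set with earlier results of these data known. The count table lists 315 such names, of which 85 had no read in any cell and 137 were read in fewer cells than that. At the limit, Slc17a5, Slc22a4, Slc29a1, Slc52a2 and Slc7a6 were taken with 18 cells, and Slc25a27, Slc25a35, Slc25a44 and Slc39a3 were among those left out with 17 cells. The pattern misses carriers whose family letter is not "a", and it takes in Slc9a3r1, Slc9a3r2 and Slc7a6os, which bear a carrier's name but are not carriers. The 93 names belong to 34 families, and 22 of them are of the Slc25 family.

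A cell's carriers decide which nutrients it can take up and what its mitochondria can exchange with the cytosol. Astrocytes and the radial stem cells of the dentate gyrus, which share much of their gene expression, are known for carriers of bicarbonate, glutamine, zinc and fatty acids. Some amino acid carriers work only as pairs: Slc3a2 is the heavy chain that brings light chains of the Slc7 family to the cell surface, where Slc7a10 exchanges small neutral amino acids such as glycine and D-serine, Slc7a11 takes up cystine in exchange for glutamate, and Slc7a5 takes up large neutral amino acids such as leucine. The Slc25 family lies mostly in the inner mitochondrial membrane and is led by the ADP/ATP exchangers Slc25a4 and Slc25a5 and the phosphate carrier Slc25a3.

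All cells came from homozygous Nestin:CFPnuc mice (B6.Cg-Tg(Nes-CFP)1Enik/J, C57BL/6), in which the Nestin promoter drives a nuclear cyan fluorescent protein, so that every group carried the transgene. Cells were sorted as viable by exclusion of propidium iodide, and 41 came from animals aged 4.5 months and 48 from animals aged 2 months. A deposited table divides them into 11 IPC, 18 aNSC and 60 qNSC (read here as intermediate progenitor, activated and quiescent neural stem cells) and gives qNSC the colours green (25 cells), red (26 cells) and blue (9 cells), whose meaning is not stated. No label names the animal of a cell, so each group is 1 sample: no test was possible, every SD below is the spread between cells, and an interval on summed reads or on a share of cells covers counting error only. How classes and colours were assigned is not stated, and where these expression values were used for it, part of any difference between them is built into the choice of cells.

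The cells held 234607 to 1896072 counts (median 912391). The 10 astrocyte markers, which quiescent stem cells share, summed to a median of 1310 CPM (counts scaled to a total of 1000000 per cell, range 266 to 3438) in IPC, 14155 CPM (144 to 37708) in the 11 aNSC with fewer than 10 reads of Pdgfra, and 34129 CPM (12808 to 46053) in qNSC. The other 7 aNSC had 10 or more reads of Pdgfra, the receptor that marks oligodendrocyte precursors. In those 7 the precursor markers summed to 7841 to 17549 CPM, against 0 to 212 CPM in the other aNSC, and their astrocyte markers had a median of 1302 CPM, with no read of Aldh1l1 or Gfap. In all, 12 cells carried markers of another cell type, 8 aNSC and 4 qNSC, and their part in the results below was measured by leaving them out. Reads of Xist or Tsix were present in 37 of 41 cells of 4.5 months and in 0 of 48 cells of 2 months, while Y-linked reads were present in 0 of 41 and in 38 of 48 cells, so that age and sex cannot be told apart.

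Measured per length, in the deposited TPM (length-scaled transcript abundance), the 93 carriers summed to an average of 9671 TPM per cell. The 22 Slc25 carriers, which lie in mitochondria except for the peroxisomal Slc25a17, made up 49.1% of this and Slc25a4, Slc25a5 and Slc25a3 alone 34.7%. The 14 carriers of amino acids and peptides made up 14.6%, the 17 of metals and heme 11.2%, and the 9 of vitamins, urea and organic ions 5.32%. The lowest shares were those of the 4 cation-chloride and calcium carriers with 0.447% and of the nucleoside carrier Slc29a1 with 0.291%. After the leading mitochondrial trio, the highest averages were 451 TPM for Slc25a18 (a mitochondrial glutamate carrier), 450 TPM for Slc7a10, 417 TPM for Slc27a1 (fatty acid uptake), 377 TPM for Slc39a12 (a zinc importer of the ZIP family) and 345 TPM for Slc3a2. Detection was patchy in these cells, with 7 carriers read in at least 80% of cells and 49 in fewer than 40%. Of the 93, 10 have exons that overlap those of another coding gene, whose reads cannot be told apart in libraries without strand, among them Slc7a10 (with Lrp3), Slc25a18 (with Atp6v1e1), Slc25a11 (with Rnf167), Slc48a1 (with Hdac7), Slc35a4 (with Apbb3), Slc20a2 (with Smim19), Slc11a2 (with Gm5475), Slc7a4 (with P2rx6) and Slc39a13 (with Psmc3).

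The mitochondrial trio was read in nearly every cell of each class. Slc25a4 averaged 934 ± 370 TPM in IPC, 1518 ± 709 TPM in aNSC and 1570 ± 888 TPM in qNSC. Slc25a5, the ADP/ATP exchanger that is typical of dividing cells, averaged 1420 ± 957 TPM in IPC, 1246 ± 972 TPM in aNSC and 1090 ± 792 TPM in qNSC. The 2 exchangers thus stood in opposite order in IPC and qNSC: Slc25a4 had more TPM than Slc25a5 in 4 of 11 IPC, 11 of 18 aNSC and 43 of 60 qNSC, with wide overlap between cells. Slc25a3 averaged 457 ± 294 TPM in IPC, 853 ± 560 TPM in aNSC and 712 ± 520 TPM in qNSC. By CPM, none of the trio passed the size rule given below between classes.

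**Figure D1:**
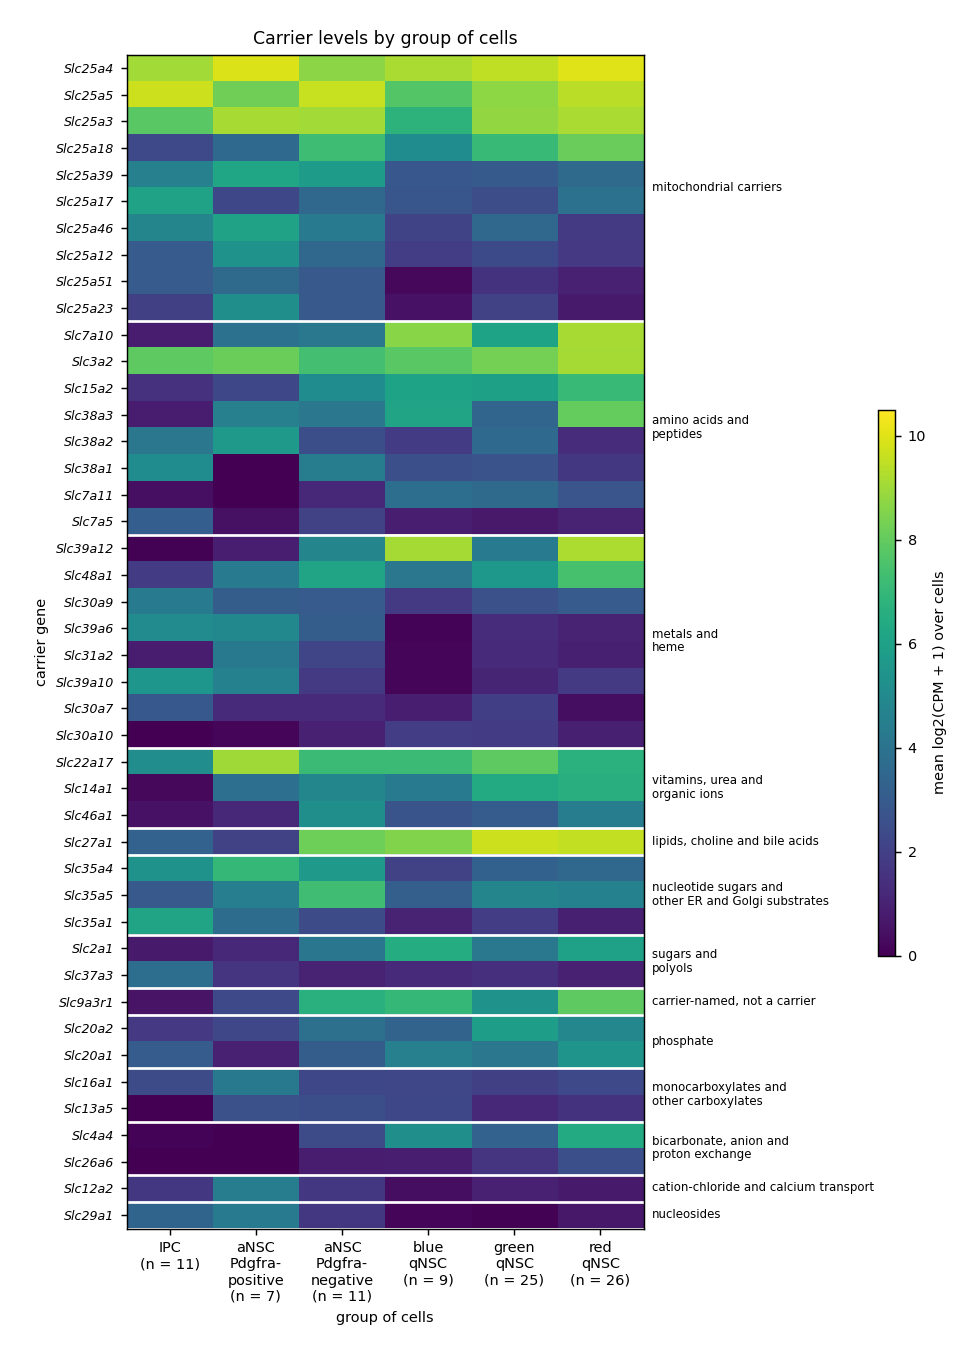
Mean log2(CPM + 1) of the named carriers (one line each, grouped by substrate) in IPC (11 cells), Pdgfra-positive aNSC (7), Pdgfra-negative aNSC (11), and blue (9), green (25) and red (26) qNSC. Slc25a4, Slc25a5 and Slc25a3 are high in every column, while Slc39a12 and Slc4a4 are near 0 in IPC and in Pdgfra-positive aNSC.

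The paired amino acid carriers differed in how often their partners were read. Slc3a2, the heavy chain, was read in 87 of 89 cells. It had a lowest, median and highest value of 79.2, 198 and 1308 CPM in IPC, 1.22, 357 and 739 CPM in aNSC, and 0, 582 and 2479 CPM in qNSC, so that the classes overlapped. Slc7a10 was read together with Slc3a2 in 3 of 11 IPC, 11 of 18 aNSC and 49 of 60 qNSC, Slc7a11 with Slc3a2 in 1 of 11 IPC, 2 of 18 aNSC and 32 of 60 qNSC, and Slc7a5 with Slc3a2 in 6 of 11 IPC, 5 of 18 aNSC and 11 of 60 qNSC. Of the 3 light chains, Slc7a10 and Slc7a11 were thus most often read in qNSC and Slc7a5 in IPC. Slc7a10 had more TPM than its heavy chain in 0 of 11 IPC, 3 of 18 aNSC and 38 of 60 qNSC.

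The 250 bases before the RefSeq start (GRCm38.p6) of the heavy chain and of the light chains Slc7a11 and Slc7a10 are shown because Slc7a11 and Slc7a10 each work with the heavy chain and were both read more often in qNSC, and a promoter window was in the table for each gene. Capitals mark matches to the amino acid response motif TGATGNAA on either strand, the element to which Atf4 binds as part of a heterodimer when amino acids are scarce. It was picked for display after a search for 8 motifs.
Slc7a11 (chr3:50443614-50443863, minus strand): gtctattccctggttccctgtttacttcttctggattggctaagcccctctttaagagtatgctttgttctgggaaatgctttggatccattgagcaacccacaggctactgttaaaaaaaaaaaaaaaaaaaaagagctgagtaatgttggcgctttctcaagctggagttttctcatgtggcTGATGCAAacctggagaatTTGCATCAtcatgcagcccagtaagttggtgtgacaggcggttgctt
Slc3a2 (chr19:8713898-8714147, minus strand): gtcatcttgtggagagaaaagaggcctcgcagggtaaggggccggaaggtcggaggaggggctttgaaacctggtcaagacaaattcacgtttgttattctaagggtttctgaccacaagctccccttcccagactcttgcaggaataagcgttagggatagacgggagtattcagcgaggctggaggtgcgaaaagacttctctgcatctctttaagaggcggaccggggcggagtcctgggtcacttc
Slc7a10 (chr7:35186135-35186384, plus strand): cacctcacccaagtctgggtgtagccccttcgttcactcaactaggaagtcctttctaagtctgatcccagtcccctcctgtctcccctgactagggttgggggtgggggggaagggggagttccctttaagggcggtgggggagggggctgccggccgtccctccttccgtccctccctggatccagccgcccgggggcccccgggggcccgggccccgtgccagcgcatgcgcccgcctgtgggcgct
The Slc7a11 window holds 2 matches, 66 to 59 and 47 to 40 bases before the start, on opposite strands and not overlapping, and the windows of Slc3a2 and Slc7a10 hold none. The Slc3a2 window lies inside the span of its gene (chr19:8706882-8723369), and the bases before the outer end of that span were not searched. Of all 32851 windows of this length, 3.45% hold the motif, and 13 (0.0396%) hold it at least 2 times. The other motifs searched on both strands were the antioxidant response element TGACNNNGC (in 10.2% of windows), the full NFI palindrome (0.0365%) and its arm TTGGCA (12.3%), the E-box CAGCTG (13.0%), the SOX motif ACAATG (10.7%), the RBPJ motif TGGGAA (21.6%) and the STAT motif TTCCNGGAA (0.913%). Of these only the RBPJ motif matched, once in the Slc7a11 window, 180 to 175 bases before the start, and once in that of Slc3a2, 124 to 119 bases before it. A match describes letters in these windows and no binding was measured.

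For the comparison of aNSC with qNSC, and for all those that follow, a carrier counts as higher or lower where 3 values pass in the same direction: mean log2(CPM + 1) over cells differs by 1 or more, the CPM of summed reads by a ratio of 2 or more, and the percentage of cells with a read by 15 points or more. This is a rule of size, not a test. In aNSC, 13 carriers were higher and 9 lower, against 17.1% and 3.61% of the 7204 genes read in at least 20% of cells (13 and 9 of 93 are 14% and 9.68%). The share of carriers higher in aNSC was near the background and the share lower was above it, though not without the cells that carried markers of other types (4.30% against 3.80%). The median difference was 0.40 over the 93 and 0.75 over all genes tested. The 9 lower carriers were Slc39a12 for zinc, Slc27a1 for fatty acids, Slc4a4 for bicarbonate, Slc20a1 and Slc20a2 for phosphate, Slc7a10, Slc7a11 and Slc15a2 for amino acids and peptides, and the anion exchanger Slc26a6. Of the 22 Slc25 carriers 6 were higher and 0 lower, and of the 14 carriers of amino acids and peptides 0 were higher and 3 lower.

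Slc39a12 (zinc import, chr2:14388316-14494977) had a lowest, median and highest value of 0, 1.16 and 1629 CPM in aNSC, against 0, 650 and 7498 CPM in qNSC. Its mean log2(CPM + 1) was 3.26 ± 4.14 in aNSC and 7.18 ± 4.47 in qNSC, a difference of -3.91, and 1 aNSC held 41.2% of the reads of that class. It was read in 10 of 18 aNSC (55.6%, exact 95% interval 30.8 to 78.5) and in 44 of 60 qNSC (73.3%, 60.3 to 83.9), so the levels differed more than the detection. Slc7a10 (chr7:35186385-35201114) had 0, 22.4 and 1868 CPM in aNSC, against 0, 579 and 3052 CPM in qNSC, a difference of -3.70 in mean log2(CPM + 1). Its summed reads gave 136 CPM (131 to 142) in aNSC and 734 CPM (727 to 742) in qNSC, and 73.8% of its values above 0 were not whole. Slc27a1, which takes up fatty acids and couples them to coenzyme A, had 0, 193 and 1205 CPM in aNSC, against 0, 915 and 2600 CPM in qNSC. It was read in 12 of 18 aNSC and in 59 of 60 qNSC, the most regular carrier of this group in qNSC.

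Slc4a4 (chr5:88886818-89239653), the sodium bicarbonate cotransporter of astrocytes, was read in 3 of 18 aNSC (16.7%, 3.58 to 41.4) and in 41 of 60 qNSC (68.3%, 55.0 to 79.7). It had 0, 0 and 953 CPM in aNSC, against 0, 69.9 and 1182 CPM in qNSC, so most aNSC lacked it while a few reached the levels of qNSC. Slc7a11 (chr3:49892526-50443614) was read in 2 of 18 aNSC and in 33 of 60 qNSC, with 99.6% of the aNSC reads in 1 cell of 1203 CPM, and 58.3% of its values above 0 were not whole. Neither Slc7a11 nor Slc20a2 passed with TPM or in thinned cells. Slc20a1 and Slc20a2, which take up phosphate with sodium, differed by -2.49 and -1.82 in mean log2(CPM + 1). Slc15a2, a carrier of small peptides, differed by -2.47, with a median of 31.7 CPM in aNSC and 307 CPM in qNSC. Several other carriers pointed the same way without passing the rule: Slc3a2 differed by -0.90, the glucose carrier Slc2a1 by -2.35 (read in 12 of 18 aNSC and 42 of 60 qNSC), the urea carrier Slc14a1 by -1.74 and Slc9a3r1, a scaffold beneath the membrane, by -1.75.

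**Figure D2:**
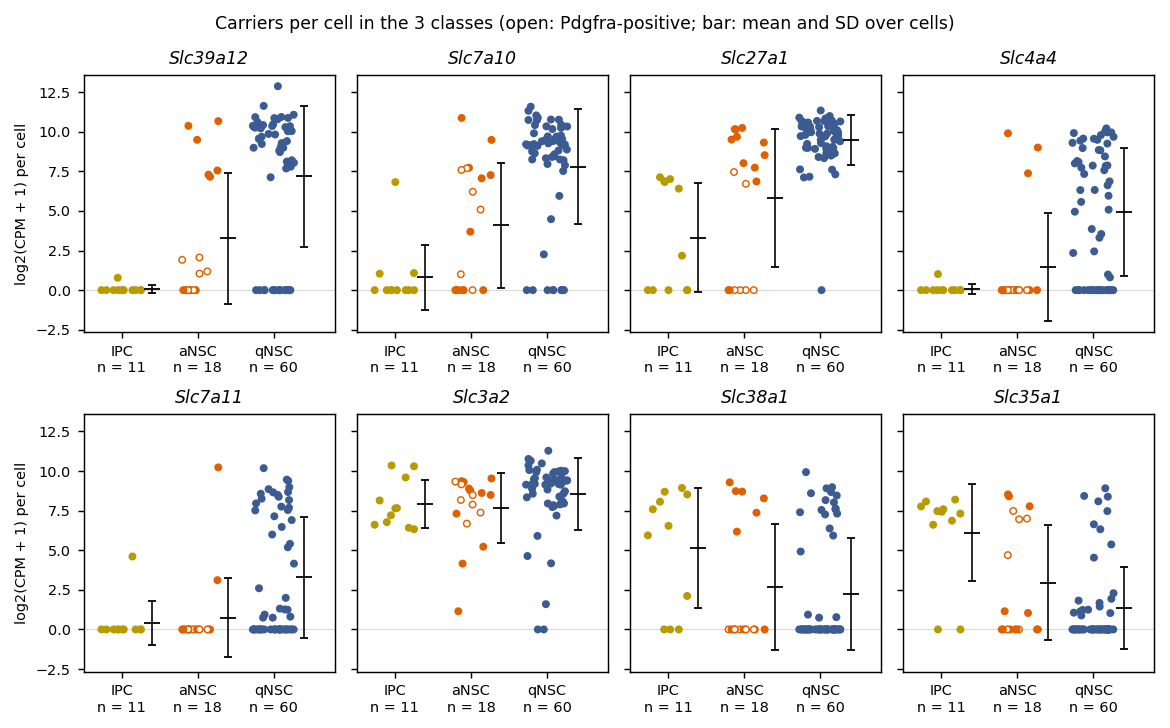
Log2(CPM + 1) per cell of 8 carriers in IPC (11 cells), aNSC (18) and qNSC (60); open points are Pdgfra-positive aNSC and bars are the mean ± SD over cells. Slc39a12, Slc7a10, Slc27a1 and Slc4a4 lie lower in aNSC than in qNSC with overlapping cells, Slc3a2 is read in nearly all cells, and Slc35a1 and Slc38a1 are read most often in IPC.

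Among the carriers higher in aNSC, Slc39a6, a zinc importer, was read in 9 of 18 aNSC and in 11 of 60 qNSC, with 158 CPM (151 to 164) in the summed reads of aNSC and 32.3 CPM (30.8 to 33.9) in those of qNSC. Slc29a1, which carries nucleosides, was read in 7 of 18 aNSC and in 6 of 60 qNSC, and its summed reads were 10.2-fold higher in aNSC (77.3 CPM in aNSC and 7.6 CPM in qNSC). Slc35a4, an Slc35 family member of internal membranes, had a median of 213 CPM in aNSC and 0.61 CPM in qNSC, a difference of 3.02 in mean log2(CPM + 1). The mitochondrial members were Slc25a39 (glutathione import, a difference of 2.71), Slc25a23 (ATP-magnesium and phosphate exchange, 2.55), Slc25a46 (an outer membrane protein of mitochondrial shape, 2.47), Slc25a12 (aspartate and glutamate exchange, 2.20), Slc25a51 (NAD import, 2.11) and Slc25a36 (pyrimidine nucleotides, 1.51), of which Slc25a51 and Slc25a36 did not pass with a pseudocount of 10. The cells of both classes overlapped for each of them.

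Part of this rests on the cells with markers of other types. Without the 12 such cells, 13 carriers were higher in aNSC, only 5 of them among the 13 above (Slc39a6, Slc25a39, Slc25a23, Slc29a1 and Slc9a8), and 4 were lower, 14% and 4.30% of the 93 against 15.1% and 3.80% of all genes under the same exclusion, so that the share of lower carriers no longer stood above the background. Slc39a12, Slc4a4 and Slc7a10 were still lower, whereas Slc27a1, Slc15a2, Slc20a1, Slc20a2, Slc26a6 and Slc7a11 no longer passed. Slc27a1 averaged 2.02 ± 3.46 in the 7 Pdgfra-positive aNSC and 8.20 ± 2.94 in the 11 other aNSC, against 9.46 ± 1.59 in qNSC. Slc4a4 and Slc38a1, a glutamine carrier, had no read in the Pdgfra-positive aNSC, where 3 counts would be 0.41 CPM, and were read in 3 and 6 of the 11 others. Slc22a17, a receptor of lipocalin, averaged 8.99 ± 0.62 in the Pdgfra-positive aNSC, with 260 CPM or more in each of the 7, and 7.16 ± 2.60 in the others. With the 11 Pdgfra-negative aNSC alone, a restriction chosen after the data were seen, 17 carriers were higher than in qNSC and 5 lower (background 13.8% and 3.37%), Slc7a10 by -3.60, Slc4a4 by -2.56 and Slc39a12 by -2.40 among them. Of these 11 cells, 1 carried endothelial and mural markers and was among the 12 left out above. The other 10 are the aNSC kept in that exclusion, in which the share of higher carriers was not above the background.

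Over the 93 carriers, IPC had fewer reads than aNSC by median, but the choice of the 93 bears on this. A carrier needed a read in at least 18 cells to be chosen, so one read only in the 11 IPC was left out. One read only in aNSC needed all 18 of them, whereas 18 of the 60 qNSC were enough. The sums and the numbers of carriers read per cell are therefore tilted against IPC and, less so, against aNSC beside qNSC. They are given without a background. The genes behind the background shares passed the same filter. The 93 carriers summed to a median of 7017 CPM (5045 to 10002) in IPC, 9807 CPM (6376 to 18511) in aNSC and 12926 CPM (7309 to 21827) in qNSC. The number of carriers read per cell had medians of 37 in IPC, 43 in aNSC and 42 in qNSC, and of 33, 40 and 39 after thinning each cell to 445311 reads (10, 15 and 55 cells kept). The amino acid and peptide carriers summed to a median of 944 CPM (273 to 2248) in IPC, 982 CPM (462 to 3911) in aNSC and 2403 CPM (209 to 6520) in qNSC, with the highest median in qNSC and overlapping cells in all 3 classes. The carriers of vitamins, urea and organic ions had medians of 147 CPM in IPC, 716 CPM in aNSC and 789 CPM in qNSC, lowest in IPC. The 3 lipid and choline carriers had medians of 117, 478 and 1090 CPM in IPC, aNSC and qNSC. Between IPC and aNSC, 6 carriers were higher and 21 lower in IPC, against a background of 10.4% and 17.2% (6.45% and 22.6% of the 93), and the median difference was -0.65 over the 93 and -0.07 over all genes tested. Of the 9 carriers of vitamins, urea and organic ions 9 pointed lower in IPC and 3 passed, and of the 4 of carboxylates 3 passed as lower. Of the 22 Slc25 carriers the peroxisomal Slc25a17 was the 1 that was higher, 2 were lower and 17 pointed lower. Of all 7204 genes tested, 3723 pointed lower in IPC. With the Pdgfra-negative aNSC alone, 8 carriers were higher and 30 lower in IPC (background 14.9% and 17.7%), with a median difference of -0.80 over the 93. Those aNSC include the 1 cell with endothelial and mural markers.

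The carriers with the largest differences were read in few IPC. Slc9a3r1 had a lowest, median and highest value of 0, 0 and 70.3 CPM in IPC, against 0, 129 and 793 CPM in aNSC, and was read in 1 of 11 IPC and 13 of 18 aNSC. Slc14a1, the urea carrier, was read in 2 of 11 IPC with at most 1.76 CPM, against 12 of 18 aNSC with up to 1144 CPM. Slc39a12 was read in 1 of 11 IPC at 0.72 CPM, and Slc4a4 in 1 of 11 IPC at 1.02 CPM. Slc13a5, the citrate carrier of the cell surface, had no read in IPC, where 3 counts would be 0.296 CPM, and was read in 9 of 18 aNSC. Slc46a1, which takes up folate, was read in 1 of 11 IPC and 10 of 18 aNSC, Slc38a3, a glutamine carrier of astrocytes, in 1 of 11 IPC and 12 of 18 aNSC, and Slc48a1, a heme carrier, in 3 of 11 IPC and 15 of 18 aNSC. Differences in mean log2(CPM + 1) over these ran from -4.41 for Slc9a3r1 to -2.55 for Slc13a5, and that of Slc4a4, which did not pass the rule, was -1.37.

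The 6 carriers higher in IPC were Slc35a1, Slc25a17, Slc39a10, Slc37a3, Slc30a7 and Slc30a9. Slc35a1, which brings CMP-sialic acid into the Golgi, had 0, 171 and 292 CPM in IPC, against 0, 0.53 and 367 CPM in aNSC, and was read in 9 of 11 IPC and 9 of 18 aNSC. The zinc importer Slc39a10 had summed reads of 229 CPM (220 to 238) in IPC and 59.7 CPM (56.0 to 63.7) in aNSC. Slc25a17, the peroxisomal member of the Slc25 family, differed by 2.98 in mean log2(CPM + 1), and Slc37a3, Slc30a7 (zinc into the Golgi) and Slc30a9 by 2.53, 1.65 and 1.31. Slc38a1 had a median of 92 CPM in IPC and 0 CPM in aNSC, but its summed reads were only 1.90-fold higher. Slc7a5 was read in 6 of 11 IPC and 5 of 18 aNSC and did not pass either. It did pass as higher in IPC in thinned cells and without cells that carried markers of other types. Against the Pdgfra-negative aNSC, though, its summed reads were lower in IPC (40.1 CPM in IPC and 76.6 CPM in those aNSC). Those aNSC include 1 cell with endothelial and mural markers, and without that cell Slc7a5 passed as higher in IPC. Without cells that carried markers of other types, 10 carriers were higher in IPC, 4 of the 6 among them, and 25 lower, 19 of the 21 among them, 10.8% and 26.9% of the 93 against 14.5% and 16.3% of all genes. The 2 that no longer passed as higher were Slc35a1 and Slc25a17, which did not pass with TPM either. Slc25a17, Slc30a7 and Slc30a9, as well as the lower Slc38a3 and Slc39a12, did not pass in thinned cells. Slc30a7 and Slc30a9 did not pass with a pseudocount of 10, Slc30a9 with reads counted from 10, or Slc25a17 with upper quartile scaling. Of the 6, only Slc39a10 and Slc37a3 passed in each of these settings.

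Among qNSC, green cells had less of several carriers than red cells. By the size rule 3 carriers were higher and 6 lower in green cells, against 6.55% and 3.96% of all genes tested (3.23% and 6.45% of the 93). Slc38a3 (chr9:107650634-107669530), which moves glutamine with sodium, had 0, 0 and 1157 CPM in green cells, against 0, 539 and 2082 CPM in red cells. It was read in 12 of 25 green cells (48.0%, 27.8 to 68.7) and in 24 of 26 red cells (92.3%, 74.9 to 99.1), a difference of -4.58 in mean log2(CPM + 1). Slc4a4 was read in 13 of 25 green and 22 of 26 red cells, with medians of 0.98 and 263 CPM. Slc7a10 was read in 17 of 25 green and 25 of 26 red cells, with medians of 338 and 657 CPM, and Slc9a3r1 in 18 of 25 green and 25 of 26 red cells, with medians of 162 and 375 CPM. These 4 are carriers or scaffolds of the cell surface, and the cells of both colours overlapped in each. Slc25a29, a mitochondrial carrier of basic amino acids, was read in 3 of 25 green and 10 of 26 red cells, and Slc35a3, which brings UDP-N-acetylglucosamine into the Golgi, in 4 of 25 green and 9 of 26 red cells, though Slc35a3 did not pass with TPM, a pseudocount of 10, thinned cells or reads counted from 10.

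Slc39a12 had the widest gap in mean log2(CPM + 1), 4.38 ± 5.10 in green and 9.21 ± 2.08 in red cells, but did not pass the rule. It was read in 11 of 25 green and 25 of 26 red cells, while its summed reads were 513 CPM in green and 910 CPM in red cells, a ratio of 0.56, and single cells reached 2150 CPM in green and 1956 CPM in red cells. The copper importer Slc31a1 was higher in green cells, with 144 CPM (140 to 149) in summed reads of green and 63.9 CPM (60.7 to 67.2) in those of red cells and a read in 15 of 25 green and 9 of 26 red cells. Slc25a46 was read in 13 of 25 green and 9 of 26 red cells, and Slc7a4, which did not pass with a pseudocount of 10, in 8 of 25 green and 2 of 26 red cells. Slc27a1 differed by 0.16. Astrocyte markers, summed, had a median of 26522 CPM (17806 to 42986) in green and 39398 CPM (18031 to 46053) in red cells, so that they moved with the colours as well, and their part in the carriers' differences was not tested. All 93 carriers together had a median of 12132 CPM in green and 14129 CPM in red cells.

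**Figure D3:**
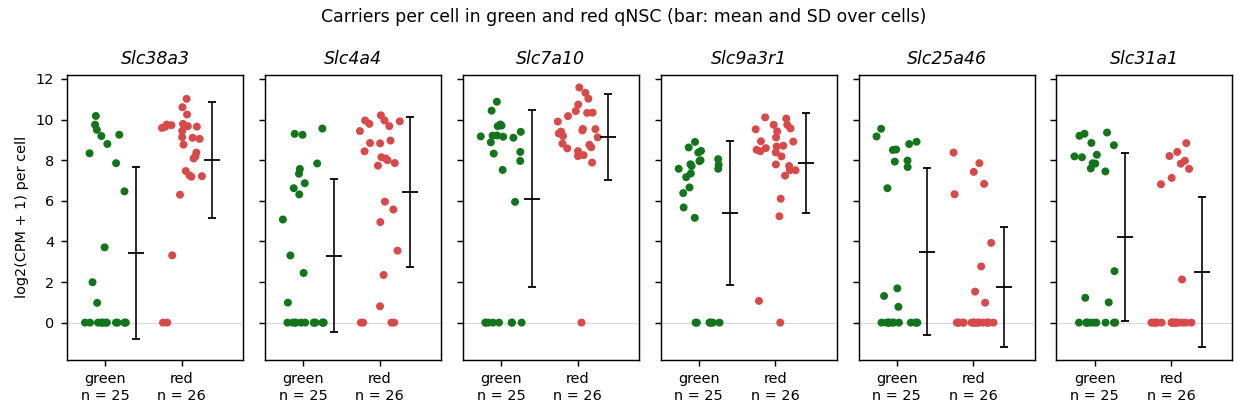
Log2(CPM + 1) per cell of 6 carriers in green (25 cells) and red (26 cells) qNSC, with bars for the mean ± SD over cells. Slc38a3, Slc4a4, Slc7a10 and Slc9a3r1 lie lower in green cells, in which 13, 12, 8 and 7 cells had no read, and Slc25a46 and Slc31a1 lie higher.

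Blue qNSC were few and less deeply read, with a median of 793965 counts against 1004304 in the other qNSC. In blue cells 2 carriers were higher and 14 lower, against a background of 2.8% and 16.9%, close to the 2.15% and 15.1% of the 93, and the median difference was -0.50 over the 93 and -0.64 over all genes tested. Of the 22 Slc25 carriers 6 were lower, among them Slc25a11 (exchange of oxoglutarate and malate), read in 3 of 9 blue and 37 of 51 other cells, Slc25a1 (citrate export), read in 2 of 9 and 28 of 51, and Slc25a18, read in 6 of 9 and 45 of 51. Slc30a5, which brings zinc into the secretory pathway, and Slc39a13 had no read in the 9 blue cells, where 3 counts would be 0.451 CPM. They were read in 21 and 20 of the 51 other cells. Slc7a2, an importer of cationic amino acids, was higher in blue cells, with summed reads of 126 CPM (118 to 135) in blue and 36.6 CPM in other qNSC, as was the folate carrier Slc19a1 with 121 CPM (113 to 130) in blue and 41.8 CPM in other qNSC. Of the reads of Slc19a1 in blue cells 62.1% lay in 1 cell, and it did not pass with TPM or a pseudocount of 10. Slc25a18 did not pass with upper quartile scaling or in thinned cells. Slc7a10 was read in 9 of 9 blue cells and Slc39a12 in 8 of 9, and each of them in 25 of 26 red cells.

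With age, few carriers of qNSC differed. At 4.5 months 2 carriers were higher and 4 lower than at 2 months, against a background of 2.15% and 5.22% (2.15% and 4.30% of the 93), so that the carriers were near the background in both directions. The median difference was -0.21 over the 93 and -0.21 over all genes tested. Slc2a8, a glucose carrier of internal membranes, had 0, 58.7 and 489 CPM at 4.5 months, against 0, 0 and 480 CPM at 2 months. It was read in 16 of 28 cells at 4.5 months (57.1%, 37.2 to 75.5) and in 8 of 32 at 2 months (11.5 to 43.4%). Slc25a29 was read in 12 of 28 cells at 4.5 months, against 4 of 32 at 2 months, with 39.1% of its reads at 4.5 months in 1 cell. Both were thus read in a larger share of cells at 4.5 months, and most cells of 2 months had no read of either.

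The lower carriers at 4.5 months were Slc35a4, Slc25a46, Slc38a9 and Slc7a5. Slc35a4 was read in 10 of 28 cells at 4.5 months, against 20 of 32 at 2 months, a difference of -2.21 in mean log2(CPM + 1). Slc25a46 was read in 9 of 28 cells at 4.5 months, against 17 of 32 at 2 months, and Slc38a9, the lysosomal carrier through which arginine is sensed, in 7 of 28 and in 15 of 32. Slc7a5, the leucine importer, had at most 3.66 CPM at 4.5 months and at most 113 CPM at 2 months, with reads in 3 of 28 cells at 4.5 months, against 9 of 32 at 2 months. Its summed reads gave 0.294 CPM (0.118 to 0.605) at 4.5 months and 15.7 CPM (14.3 to 17.1) at 2 months, so that Slc7a5 was nearly unread in the older cells. Each of the 4 stopped passing under some setting: Slc35a4 with upper quartile scaling, Slc25a46 in thinned cells and without cells that carried markers of other types, Slc38a9 with TPM and a pseudocount of 10, and Slc7a5 with a pseudocount of 10.

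**Figure D4:**
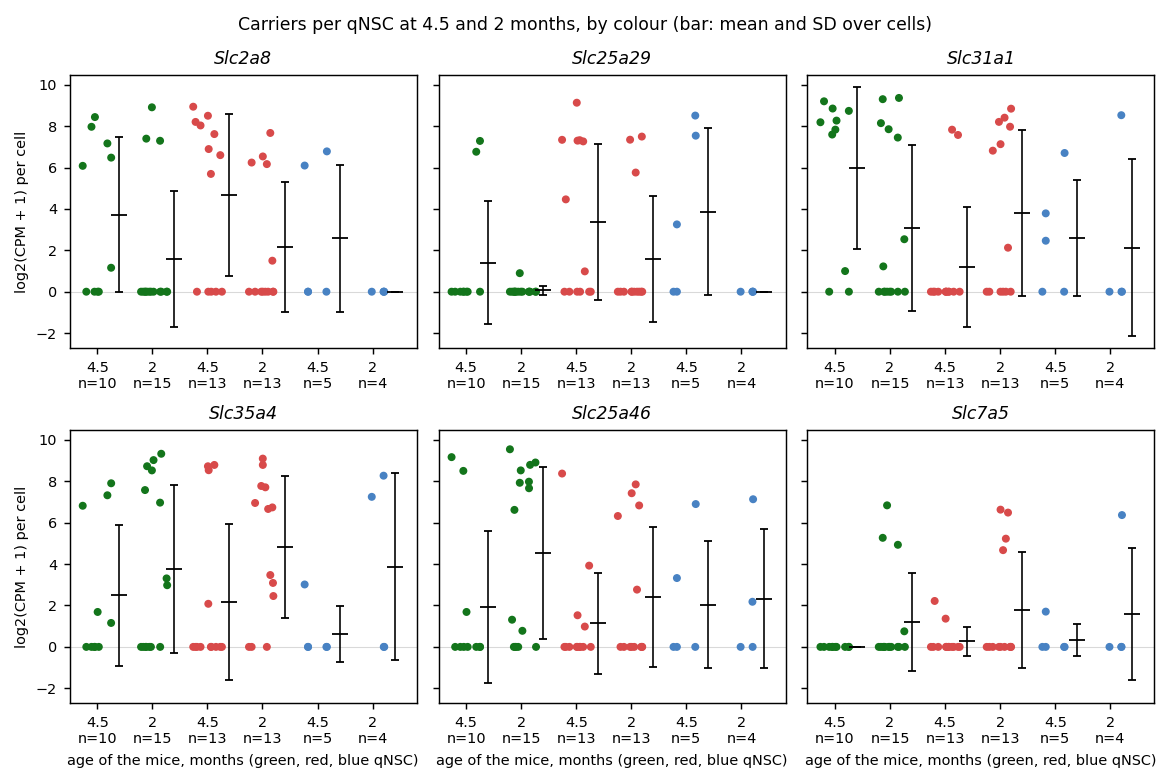
Log2(CPM + 1) per cell of 6 carriers in green, red and blue qNSC at 4.5 months (10, 13 and 5 cells) and 2 months (15, 13 and 4 cells), 4.5 months on the left of each pair, with bars for the mean ± SD over cells. Slc2a8 and Slc25a29 are read in a larger share of cells at 4.5 months in each colour, and Slc31a1 lies higher at 4.5 months in green cells and lower in red cells.

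Within the colours, Slc2a8 was read in 6 of 10 green cells at 4.5 months, against 3 of 15 at 2 months, in 8 of 13 and 5 of 13 red cells, and in 2 of 5 and 0 of 4 blue cells. Slc25a29 was read in 2 of 10 green cells at 4.5 months, against 1 of 15 at 2 months, in 7 of 13 and 3 of 13 red cells, and in 3 of 5 and 0 of 4 blue cells. Slc7a5 was read in 0 of 10 green cells at 4.5 months, against 4 of 15 at 2 months and in 2 of 13 and 4 of 13 red cells, with 1 cell of each age among blue cells. All 3 thus pointed the same way in green and in red cells. Slc31a1 did not: in green cells its mean log2(CPM + 1) was 5.97 ± 3.93 at 4.5 months and 3.06 ± 4.01 at 2 months, with a read in 8 of 10 and 7 of 15 cells, whereas in red cells it was 1.18 ± 2.89 at 4.5 months and 3.81 ± 4.01 at 2 months, with a read in 2 of 13 and 7 of 13 cells. Over all qNSC, reads of Slc31a1 were in 13 of 28 cells at 4.5 months, against 15 of 32 at 2 months, and the difference between the colours was not tested. In green cells 6 carriers were higher and 8 lower at 4.5 months (background 7.44% and 11.1%), and in red cells 7 and 7 (background 8.01% and 10.7%). These counts moved with the settings: with a pseudocount of 10, 4 were lower in green and 2 higher in red cells, and in thinned cells 3 were lower in red cells. Slc31a1 no longer passed as higher in green cells with TPM or in thinned cells, Slc25a29 as higher in red cells with a pseudocount of 10, and Slc7a5 as lower in green cells with TPM or a pseudocount of 10 and in red cells with a pseudocount of 10 or in thinned cells.

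In aNSC, 7 carriers were higher and 24 lower at 4.5 months than at 2 months, against a background of 7.88% and 14% (7.53% and 25.8% of the 93), from 7 and 11 cells. The carriers' share of lower values was above the background, with a median difference of -0.57 over the 93 and -0.24 over all genes tested. Slc35a4 was read in 3 of 7 cells at 4.5 months, with a median of 0 CPM, and in 11 of 11 at 2 months, with 78.7 CPM or more. Slc7a10 was read in 2 of 7 cells at 4.5 months, against 9 of 11 at 2 months, Slc9a8, a sodium and proton exchanger of internal membranes, in 1 of 7 and 7 of 11, Slc25a11 in 4 of 7 and 10 of 11, and Slc4a4 in 0 of 7 (3 counts would be 0.444 CPM) and 3 of 11. Astrocyte markers had a median of 2219 CPM (144 to 24455) in aNSC at 4.5 months and 11563 CPM (785 to 37708) at 2 months, and Pdgfra-positive cells were 3 of 7 and 4 of 11. Without cells that carried markers of other types, 17 carriers were higher and 16 lower at 4.5 months, of which 3 of the 7 and 11 of the 24 were among those above, 18.3% and 17.2% of the 93 against 15.9% and 19.7% of all genes, so that the carriers no longer stood above the background among lower values.

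In IPC, with 6 cells at 4.5 months and 5 at 2 months, 9 carriers were higher and 22 lower, against a background of 8.65% and 18.5% (9.68% and 23.7% of the 93). Slc25a12 was read in 1 of 6 cells at 4.5 months, with 203 CPM, and in 4 of 5 at 2 months, with up to 351 CPM. The copper importer Slc31a1 was read in 1 of 6 and 3 of 5 cells. Slc11a2, which imports iron, was read in 4 of 6 cells at 4.5 months, with up to 283 CPM, and in 1 of 5 at 2 months, with 146 CPM. No more than 6 cells stand behind each of these values.

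**Figure D5:**
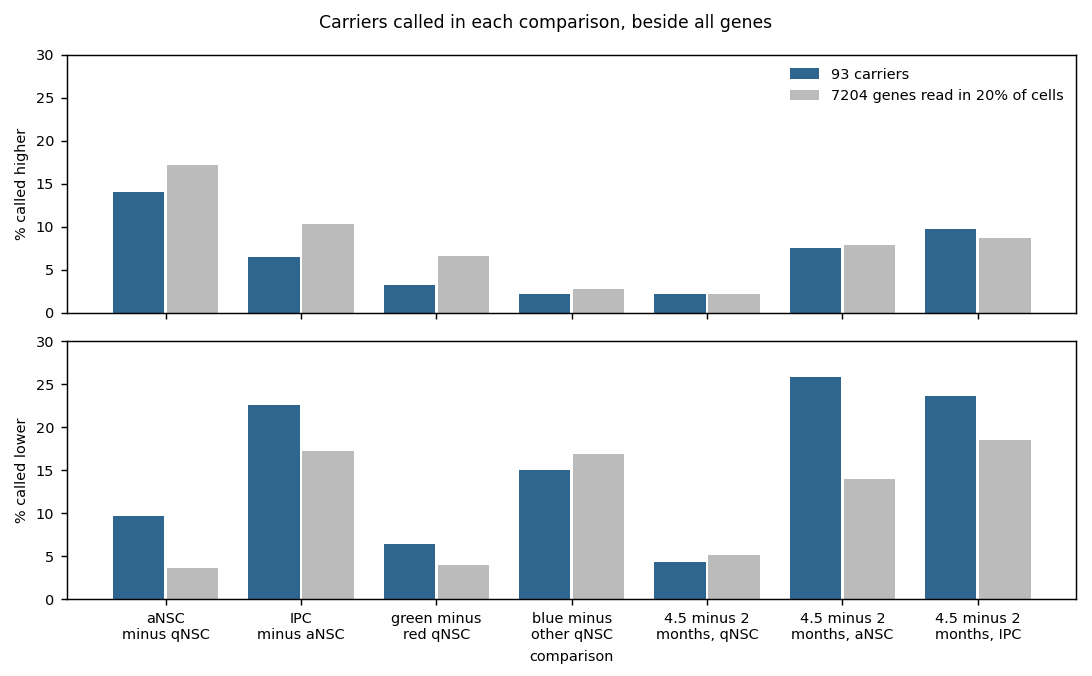
Share of the 93 carriers and of all 7204 genes tested, in percent, that passed the size rule as higher (top) or lower (bottom) in 7 comparisons. Among lower values the carriers lie above the background in aNSC against qNSC (9.68% and 3.61%) and in aNSC at 4.5 against 2 months (25.8% and 14%). Neither stands out without the cells that carried markers of other types (4.30% and 3.80%, 17.2% and 19.7%). In IPC against aNSC they lie above it with those cells (22.6% and 17.2%) and without them (26.9% and 16.3%). In green against red qNSC the values are 6.45% and 3.96% with those cells, and 6.45% and 4.12% without them. That share of carriers rests on 6 of the 93, of which 5 passed with TPM, a pseudocount of 10 or thinned cells. Few carriers thus separate it from the background. In IPC by age the values are 23.7% and 18.5%, and in qNSC by age the carriers lie close to the background.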

How the data were processed

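RNA of 89 sorted cells was amplified with a full-length, template-switching kit, per the labels' protocols. STAR, RSEM and the build mm10 were used, per the submitters' processing notes, which give no versions. A few carriers are not reported here by name. The authors deposited estimated counts per gene and cell, a deposited table of TPM, and a table of classes and colours. Counts were rounded, as 4.44% of the values above 0 were more than 1e-06 from a whole number. CPM was computed on each cell's total and analysed as log2(CPM + 1). Shares of cells have exact Clopper-Pearson and summed reads exact Poisson 95% intervals, and the floor is 3 counts over a group. Named carriers were those passing the size rule (up to 10 per direction and comparison), the 12 with the highest TPM and 22 of known function. Members, lists and rules were chosen with earlier results of these data known. The comparison was tested on simulated data. Positions are of GENCODE M21 on mm10, and promoters are RefSeq's. Alternatives were TPM, another scaling, a pseudocount of 10, thinned cells, other filters and leaving out cells with markers of other types. Python 3.11.15, numpy 2.4.6, pandas 2.3.3, scipy 1.17.1 and matplotlib 3.10.9 were used.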

Additional observations from a re-analysis of the deposited data

Results flagged for a closer look

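Over 8 groups of cells and 4 lists of at least 10 carriers, 32 sets were checked and 2 were flagged. In both, a lowest cell lay far from the others in the summed reads of the 14 carriers of amino acids and peptides. In blue qNSC (9 cells) the lowest cell had a log2(summed CPM + 1) of 7.71, the next 10.78 and the highest 12.37. In green qNSC of 4.5 months (10 cells) the lowest cell had 9.05, the next 10.48 and the highest 11.38. Chance marks about 1 in 20 such sets, so that 2 flags among 32 are near that share, and the cause was not tested.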

How the results depend on the processing

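No paired analysis was possible because the labels name no animal and the results come from no test. Of 112 counts of carriers recomputed under the alternatives, 83 stayed within 1.5 times. Of 788 other values, single carriers and the colours by age, 17 moved beyond their limit and none changed sign. For the difference of a single carrier this limit was the larger SD over cells, a wide limit that few could pass. A count could also stay the same with other carriers in it. Without cells that carried markers of other types, 13 carriers were again higher in aNSC than in qNSC, but only 5 were the same ones. With a pseudocount of 10, 7 carriers were higher in aNSC than in qNSC, 1 was higher and 8 were lower in blue qNSC, 2 were lower with age in qNSC, and 4 were higher and 11 lower with age in IPC. Without cells that carried markers of other types, 4 were lower in aNSC than in qNSC, 10 were higher in IPC than in aNSC, 5 were higher in green than in red cells, and 17 were higher with age in aNSC. With cells thinned to 445311 reads, 5 were higher in blue qNSC, 5 with age in qNSC and 15 with age in IPC. Counting a cell only from 10 reads, 5 were higher in green cells and 5 with age in qNSC. With carriers read in at least 10% of cells (130), 5 were higher in green cells and 12 with age in aNSC. With those read in at least 50% of cells (28), fewer could pass: 2 were higher in aNSC than in qNSC, 1 was higher and 10 were lower in IPC than in aNSC, 1 was higher in green cells, 0 were higher and 3 lower in blue cells, 0 and 1 with age in qNSC, 0 and 9 with age in aNSC, and 3 and 2 with age in IPC. Depth limits carriers of few reads, and no group has a replicate.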
